A study of Mus musculus with 32 samples.

Results

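The 10 genes described here are Tnf, the IL-1 family genes Il1a, Il1b, Il18, Il1rn, Il1r1 and Il1r2, and the inflammasome genes Nlrp3, Pycard and Casp1. They were chosen by gene name, and all 10 were on the array, with 11 probes of 55681 in all. Of these genes 9 were bright enough to be tested, among 21071 genes tested, and Nlrp3 was not. Hepatic RNA was measured in male C57/BL6 mice that were 8 weeks old when the diets began, on 32 arrays with 1 array per liver sample and 4 samples in each of 8 groups. C mice were fed a standard chow diet for 3 weeks and MCD mice a methionine and choline deficient diet for 3 weeks, and both received saline. Mice named C+Fc-GLP-1 had the chow and mice named M+Fc-GLP-1 the deficient diet, with injections during the last 2 weeks of Fc-GLP-1, a long-acting agonist of the GLP-1 receptor. Other fields of the labels give the drug as an agonist that also acts on the glucagon receptor, dosed at 4.4 mg/kg daily. Among the source descriptions, only those of C+Fc-GLP-1 mice after PH name a dual agonist, for the time after PH. The group names used here leave that conflict unsettled. The 4 groups before PH are liver removed at a 70% partial hepatectomy, and the 4 groups after PH are liver taken 2 weeks later from surviving mice, with diet and injections continued. The authors report higher survival after PH with Fc-GLP-1 than without it. The MCD diet is a model in which the liver becomes fatty and inflamed while the mice do not become obese.

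TNF and IL-1 are the cytokines with which macrophages start an inflammatory response. IL-1α and IL-1β act through the type 1 receptor, which signals, while the type 2 receptor binds IL-1 without signalling and the receptor antagonist blocks the type 1 receptor. IL-1β and IL-18 are made as inactive precursors, which caspase-1 cleaves once a sensor such as NLRP3 and the adaptor ASC, the product of Pycard, have assembled an inflammasome, so that mRNA levels say nothing of the mature cytokine. In liver, Il1b and Tnf are mainly transcribed in Kupffer cells and recruited myeloid cells, and early after a hepatectomy TNF takes part in priming hepatocytes to divide.

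The probes behind the main results are shown so that the part of each transcript that was measured can be seen. They are 60 bases long and are written 5′ to 3′ from the deposited files. For Il1b the first 30 bases are printed, and for the others the whole probe.
Il1b: aggttcctataatatggatgagaattttta
Il1rn: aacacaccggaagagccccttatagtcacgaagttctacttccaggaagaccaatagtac
Il1r2: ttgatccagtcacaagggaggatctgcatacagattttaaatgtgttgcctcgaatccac
Il18: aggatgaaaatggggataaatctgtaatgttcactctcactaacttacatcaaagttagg
Pycard: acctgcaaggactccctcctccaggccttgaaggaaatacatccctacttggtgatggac
In mm9, the build of the files, the Il1b probe lies at chr2:129190347-129190406 on the minus strand and the Il1rn probe at chr2:24205094-24205153 on the plus strand. The Il1r2 probe lies at chr1:40180014-40180073 and the Il18 probe at chr9:50389761-50389820, both on the plus strand, and the Pycard probe at chr7:135136241-135136300 on the minus strand. On GRCm38 the nearby genes Il1a and Il1b span chr2:129299609-129310186 and chr2:129364569-129371164, Il1rn chr2:24336860-24351491, Il18 chr9:50554700-50581841 and Pycard chr7:127991373-127993867. Il1r2 and Il1r1 span chr1:40084692-40125230 and chr1:40222480-40316201, Tnf chr17:35199367-35202007, Casp1 chr9:5298517-5307281 and Nlrp3 chr11:59541569-59566955. Which exon each probe falls in was not analysed here. The Il1rn probe matches 3 RefSeq transcripts of its gene, and those for Tnf and Il1r1 match 2 each. Tnf and Il1b were each printed in 10 spots per array, which differed within an array by a median SD of 0.53 for Tnf and 0.22 for Il1b on the log2 scale, and the other probes in 1 spot each.

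All values are log2 signals minus the log2 of the 75th percentile of the same array, so that 0 is the level of a probe at that percentile. A probe's values can be compared between groups, but not with those of another probe. A single limma model held all 8 groups, for 12 comparisons between groups and 2 interactions, at an adjusted p under 0.05 over all tested genes. The share of probes well above background ran from 36.2% on M+Fc-GLP-1 replicate 2 before PH to 69.1% on C replicate 2 before PH. The hepatocyte markers Alb, Apoa1, Ttr, Ahsg, Apob and Serpina1c were tested and together stood at 2320 to 5190 times the 75th percentile on every array. Before PH this sum was 3810 to 5190 in C and 2670 to 3240 in MCD mice, where 1 of the 6 was called lower and the median difference was -0.42. Each slide held 1 or 2 groups. C and MCD before PH shared a slide, as did the chow and MCD groups under Fc-GLP-1 at each time, so that the diets can be compared within a slide in these 3 cases. C and MCD after PH lay on a slide each and were read on another scanner, and in every comparison of treated with untreated mice, of MCD with C after PH or of time points, slide and group cannot be told apart. A shift of a whole slide cancels in both interactions.

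**Figure D1:**
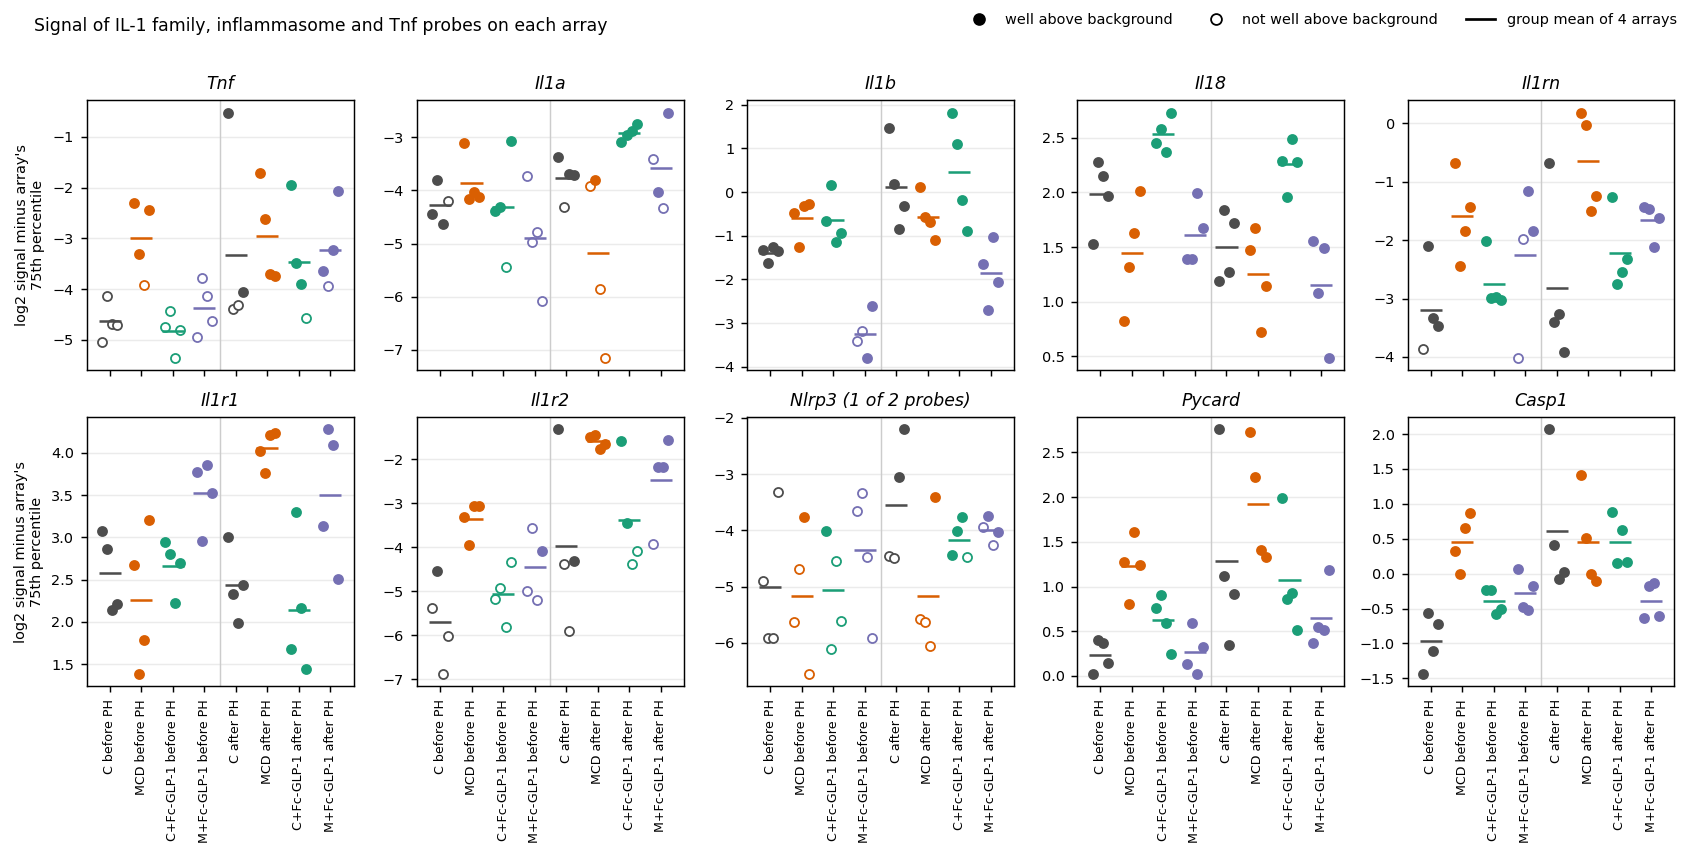
Log2 signal minus the array's 75th percentile (vertical axis) for each of 4 arrays in 8 groups (horizontal axis), 1 panel per gene with its own scale; filled points were well above background, open points were not, and bars are group means. Il1b is lowest in M+Fc-GLP-1 mice before PH, and Nlrp3 and Tnf are near background on many arrays.

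Il1b, which encodes the precursor of IL-1β, was the member that differed most. In M+Fc-GLP-1 mice before PH its 4 values were -3.41, -3.18, -3.79 and -2.62, and the probe was well above background on 2 of these arrays. In C+Fc-GLP-1 mice, on the same slide, the values were -0.67, 0.17, -1.15 and -0.93, so that every treated mouse on chow was above every treated mouse on the MCD diet. The log2 difference of M+Fc-GLP-1 from C+Fc-GLP-1 mice was -2.61 (standard error 0.47, adjusted p = 0.000436). Untreated MCD mice had -0.49, -1.26, -0.33 and -0.27, again with no overlap with M+Fc-GLP-1 mice, and the difference of M+Fc-GLP-1 from MCD was -2.66 (standard error 0.47, adjusted p = 0.00146). Of all tested genes, 15.5% had groups that did not overlap in the former comparison and 16.4% in the latter. The values in C mice were -1.33, -1.62, -1.27 and -1.36, the narrowest range of any group, with an SD of 0.16. MCD lay above C mice by 0.81 (standard error 0.47, adjusted p = 0.209) and C+Fc-GLP-1 above C mice by 0.75 (adjusted p = 0.404). Neither difference passed the threshold, although in both comparisons the 4 values of one group lay above the 4 of the other, as they did for 28.4% of all tested genes between MCD and C mice and for 9.96% between C+Fc-GLP-1 and C mice. With only the C and MCD arrays fitted, the former difference had an adjusted p of 0.047.

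Fc-GLP-1 thus went with a different change of Il1b on the 2 diets before PH. The interaction, which is the difference between M+Fc-GLP-1 and MCD minus that between C+Fc-GLP-1 and C, was -3.42 (standard error 0.67, adjusted p = 0.00512), in a comparison in which 6.15% of all tested genes were called and 1 member of 9. It stayed past the threshold in each of 16 fits with 1 array left out, and did not with the authors' normalized values, at -2.06 (adjusted p = 0.0578). The differences of M+Fc-GLP-1 mice from MCD and from C+Fc-GLP-1 mice before PH passed the threshold under all 16 alternatives, with adjusted p of at most 0.0272. Their sizes fell to -1.41 and -1.53 under the alternative that gave the smallest.

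After PH M+Fc-GLP-1 mice again had the least Il1b. It was at -1.64, -2.71, -1.03 and -2.06 in M+Fc-GLP-1 mice and at 1.82, 1.09, -0.18 and -0.89 in C+Fc-GLP-1 mice, which shared a slide. The groups did not overlap, as for 16.6% of all tested genes, and the difference was -2.32 (standard error 0.47, adjusted p = 0.00122). Without C+Fc-GLP-1 replicate 1, the highest of all 32 arrays for Il1b, it was -1.87 (adjusted p = 0.00862). MCD mice had 0.11, -0.58, -0.69 and -1.10, and the difference of M+Fc-GLP-1 from MCD was -1.30 (adjusted p = 0.0943), with 3 of 4 M+Fc-GLP-1 arrays below every MCD array. Over all groups the mean ran from 0.46 in C+Fc-GLP-1 after PH through 0.12 in C after PH, -0.56 in MCD after PH, -0.59 in MCD before PH, -0.64 in C+Fc-GLP-1 before PH, -1.40 in C before PH and -1.86 in M+Fc-GLP-1 after PH to -3.25 in M+Fc-GLP-1 before PH. Of the 7 steps in this order 2 were larger than the SD of both neighbours, those from C+Fc-GLP-1 to C before PH and from M+Fc-GLP-1 after PH to M+Fc-GLP-1 before PH.

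In whole liver, fewer cells of a type and less RNA per cell cannot be told apart, and markers of macrophages moved with Il1b. The summed level of 7 Kupffer cell markers (Clec4f, Vsig4, Timd4, Marco, Cd5l, Adgre1 and C6), in multiples of the 75th percentile, ranged from 31.6 to 100 in M+Fc-GLP-1 mice before PH, against 95 to 177 in C+Fc-GLP-1, 99.5 to 270 in MCD and 91.9 to 149 in C mice. C6, the brightest of the 7 on chow, weighs heavily in this sum. Its mean log2 level was 6.01 in C and 5.65 in C+Fc-GLP-1 mice, against 3.08 in MCD and 2.11 in M+Fc-GLP-1 mice. The other markers were mixed in M+Fc-GLP-1 against C mice. Vsig4 (2.77 against 2.18) and Marco (3.64 against 3.39) were higher, and Cd5l (4.62 against 4.64) and Adgre1 (-0.51 against -0.46) nearly level. Clec4f (3.04 against 3.54) and Timd4 (-2.73 against -2.19) were lower. As mean log2 over the 7, M+Fc-GLP-1 (0.87 to 2.63) and C arrays (1.76 to 2.76) overlapped. Marco was higher in M+Fc-GLP-1 (3.64) than in C+Fc-GLP-1 mice (3.09), the 1 marker of 7 to be so. Of these 7 markers 3 were past the threshold below their MCD level in M+Fc-GLP-1 mice, with a median difference over the 7 of -1.62, and 2 were lower than in C+Fc-GLP-1 mice, with a median of -0.62. Clec4f, which marks resident Kupffer cells, was lower by -1.79 (adjusted p = 0.00372) and -1.10 (adjusted p = 0.0429). The sum for 9 monocyte and macrophage markers was 24.7 to 43.3 in M+Fc-GLP-1 and 44.6 to 109 in MCD mice, with 2 of 9 lower past the threshold. It overlapped with 30.7 to 46.3 in C mice, and against C+Fc-GLP-1 mice 0 of 9 were called lower. As mean log2 over the 9, every M+Fc-GLP-1 array (-0.36 to 0.54) was above every C array (-0.82 to -0.55). Il1b went the other way, with means of -3.25 in M+Fc-GLP-1 and -1.40 in C mice. After PH the Kupffer cell sum, C6 included, was 126 to 216 in M+Fc-GLP-1 and 171 to 304 in C+Fc-GLP-1 mice, with 3 of 7 markers lower. The part of these cells in the Il1b difference was not tested. Over the 32 arrays, which share groups and slides, the genes whose pattern was most like that of Il1b were Pilrb1 (Pearson r = 0.90), Folr2 (r = 0.89), a folate receptor of resident macrophages, and Adamdec1 (r = 0.86).

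**Figure D2:**
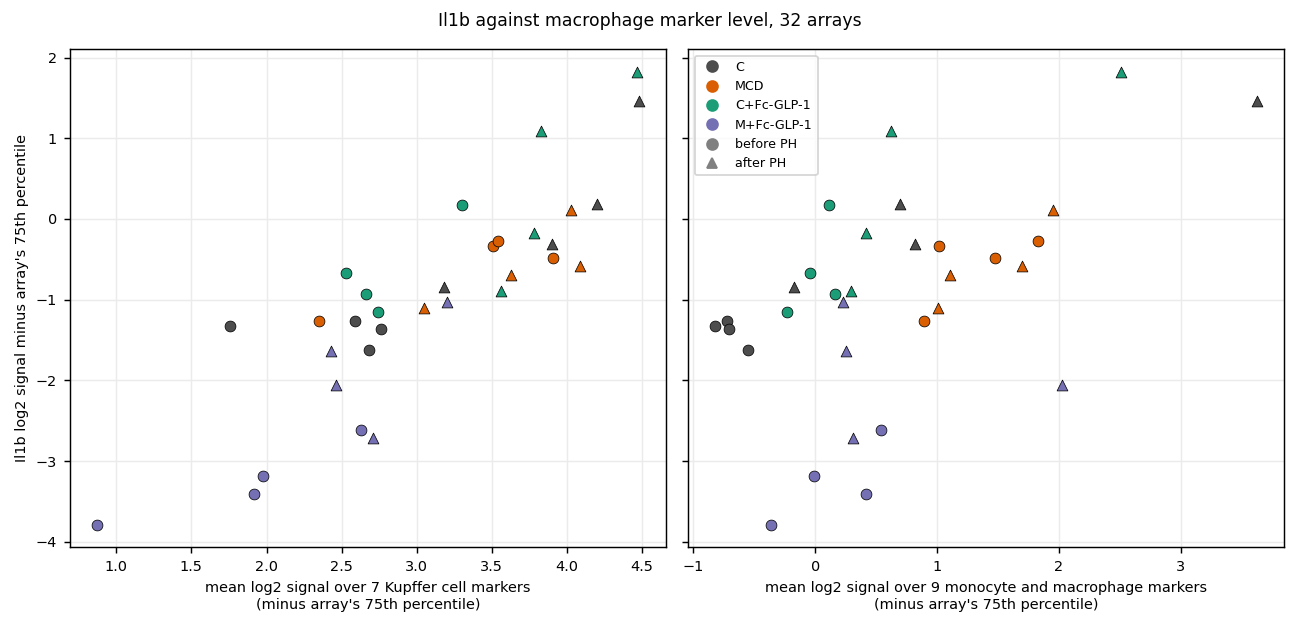
Il1b (vertical axis, log2 signal minus the array's 75th percentile) against the mean log2 signal of 7 Kupffer cell markers (left) and 9 monocyte and macrophage markers (right) on 32 arrays; colour gives the group and shape the time. The 4 M+Fc-GLP-1 arrays before PH lie from -3.79 to -2.62, where only M+Fc-GLP-1 replicate 2 after PH (-2.71) joins them, at mean log2 levels of 0.87 to 2.63 for the Kupffer cell markers and -0.36 to 0.54 for the others, which overlap with those of other groups.

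The upstream sequence of Il1b is shown because its mRNA differed most, with the motif that was found in capitals. It holds the 250 bases before the RefSeq start, chr2:129371140-129371389 on the minus strand of GRCm38.p6. The gene span given above reaches beyond this start, to 129371164, so that the window overlaps that span.
Il1b upstream: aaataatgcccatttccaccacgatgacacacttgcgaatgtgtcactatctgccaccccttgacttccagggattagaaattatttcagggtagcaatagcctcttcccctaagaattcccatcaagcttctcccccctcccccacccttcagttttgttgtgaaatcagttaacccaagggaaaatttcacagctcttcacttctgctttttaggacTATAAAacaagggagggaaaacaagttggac
The capitals mark TATAAA, whose first base is 31 bases before the start. The same letters stand 29 bases before the start of Tnf and 32 before that of Il1a. On either strand they occur in 12.4% of the same windows of 32851 RefSeq starts, and in 4 of the 14 windows of the members, the other one being Il18. The NF-κB consensus was found in 2 of the 14 member windows, 1 each of Il1r1 and Nlrp3, and in 7.25% of all windows. The letters AGGAAG, the core bound by PU.1 of myeloid cells, occur in 6 of 14 member windows and in 29.5% of all, and TGANTCA, an AP-1 motif, in 2 of 14, those of Il1a and Il1rn, and in 6.75% of all. These are matches of letters in a window and not sites shown to be bound.

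Tnf was dim. No array had it well above background in C, C+Fc-GLP-1 or M+Fc-GLP-1 mice before PH, whereas 3 of 4 arrays had it so in MCD mice, where the values were -2.30, -3.30, -3.92 and -2.45. C mice had -5.04, -4.13, -4.68 and -4.70, all below the lowest MCD value, in a comparison where 28.4% of all tested genes did not overlap. Tnf was at least 2.85-fold higher in MCD than in C mice, against the background level of the C arrays, with a log2 difference of 1.65 (standard error 0.64) that did not pass the threshold (adjusted p = 0.0545). It passed without MCD replicate 3 (1.96, adjusted p = 0.0405), with median centring (2.01, adjusted p = 0.0269) and with only these arrays fitted (adjusted p = 0.0101). With normexp the difference was 0.59 (adjusted p = 0.134) and with the authors' values 0.54 (adjusted p = 0.24), both smaller than the bound above, which holds for centring on the 75th percentile. M+Fc-GLP-1 mice were at least 1.89-fold lower than MCD mice before PH (adjusted p = 0.181). After PH the probe was well above background on 12 of 16 arrays, all 4 of MCD mice among them. C replicate 1 had -0.52 against -4.40, -4.31 and -4.05 on the other C arrays, and C+Fc-GLP-1 replicate 1 had -1.95 against -3.49, -3.89 and -4.57. No comparison called Tnf. The genes most like Tnf over the 32 arrays were Lpxn, Sh3pxd2b and Sema4d (r = 0.89 each).

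Il1a, which encodes IL-1α, was dim too and was not called in any comparison. It was not well above background in any of the M+Fc-GLP-1 mice before PH, on 1 of 4 arrays of MCD mice after PH and on all 4 of C+Fc-GLP-1 mice after PH. The highest group mean was -2.92 in C+Fc-GLP-1 mice after PH, with values of -3.09, -2.96, -2.88 and -2.74 that all lay above the C values of -3.37, -4.32, -3.68 and -3.70 on another slide (difference 0.85, adjusted p = 0.525), as 10.5% of all tested genes did not overlap in that comparison. None of the 7 steps between its ordered group means was larger than the SD of both neighbours.

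Il18 was bright on all 32 arrays and followed another pattern. In treated mice before PH it was at 2.45, 2.58, 2.37 and 2.73 on chow and at 1.39, 1.39, 1.99 and 1.67 on the MCD diet, with no overlap, as for 15.5% of all tested genes. The difference of -0.93 (standard error 0.26, adjusted p = 0.0218) was within a slide. After PH the values were 2.29, 1.96, 2.49 and 2.28 on chow and 1.56, 1.08, 1.49 and 0.49 on the MCD diet, again within a slide and with no overlap, as for 16.6% of all tested genes (difference -1.10, standard error 0.26, adjusted p = 0.00544). In untreated mice the difference of MCD from C was -0.54 (95% interval -1.08 to 0.00) before PH and -0.26 after PH, and neither passed the threshold. The difference before PH was no longer past the threshold without C+Fc-GLP-1 replicate 2 or 4 or M+Fc-GLP-1 replicate 1 or 2 (adjusted p 0.0525 to 0.0620) and with the authors' values (0.0532), and that after PH was not with normexp (0.0936) and the authors' values (0.109). The genes most like Il18 were Acss2 (r = 0.83), which makes acetyl-CoA from acetate, Ces3a (r = 0.81), a carboxylesterase, and Fetub (r = 0.80), a plasma protein made by hepatocytes.

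In these 2 comparisons of M+Fc-GLP-1 with C+Fc-GLP-1 mice, 2 of 9 members were called before PH, Il1b and Il18, where 10.4% of all tested genes were called, and 3 of 9 after PH, where 12.8% were. The third was Il1r1, the signalling receptor, which was higher in M+Fc-GLP-1 mice after PH by 1.36 (standard error 0.40, adjusted p = 0.0222), with 3.13, 4.28, 4.09 and 2.51 against 1.68, 3.30, 2.16 and 1.44. These ranges overlap, and the call was lost without C+Fc-GLP-1 replicate 1 or 4 or M+Fc-GLP-1 replicate 2 or 3 (adjusted p 0.0719 to 0.101), with only these groups fitted (0.109), and with normexp or the authors' values (0.133 each).

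In untreated mice the antagonist and the decoy receptor were the members called higher on the MCD diet at both times. Under Fc-GLP-1, where the diets shared a slide, neither was called at either time (limma adjusted p 0.433 to 0.651). The differences of M+Fc-GLP-1 from C+Fc-GLP-1 mice before and after PH were 0.60 and 0.92 for Il1r2 and 0.49 and 0.56 for Il1rn. Il1r2 was at -3.31, -3.96, -3.07 and -3.07 in MCD mice before PH and at -5.38, -4.54, -6.89 and -6.02 in C mice, where only replicate 2 was well above background. The groups did not overlap, as for 28.4% of all tested genes, and the difference was 2.35 (standard error 0.67, adjusted p = 0.0109). It was 0.60 with normexp and 0.50 with the authors' values, neither past the threshold. After PH all 4 MCD arrays lay between -1.77 and -1.45, whereas C mice had -1.32, -4.38, -5.90 and -4.31, so that C replicate 1 was above every MCD array. The difference was 2.38 (standard error 0.67, adjusted p = 0.0191), 3.27 without C replicate 1 (adjusted p = 0.00028), and not past the threshold without C replicate 2, 3 or 4 (adjusted p 0.0533 to 0.108) or with only these groups fitted (0.0964). With normexp it was 0.98 (adjusted p = 0.0361) and with the authors' values 1.19 (adjusted p = 0.0235). C+Fc-GLP-1 mice before PH were well above background on no array. In M+Fc-GLP-1 mice the mean was -4.46 ± 0.77 (SD, n = 4) before and -2.46 ± 1.03 after PH, between the C and MCD means of the same time. The most alike genes were Ms4a4a (r = 0.91), Cd14 (r = 0.89), a co-receptor for bacterial lipopolysaccharide, and Pla2g7 (r = 0.88).

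Il1rn, the receptor antagonist, was at -0.68, -2.44, -1.84 and -1.43 in MCD mice before PH and at -3.87, -2.11, -3.33 and -3.47 in C mice, where replicate 2 lay within the MCD range. The difference of 1.60 (standard error 0.58, adjusted p = 0.0417) was not past the threshold without C replicate 1, 3 or 4 or MCD replicate 1, 3 or 4 (adjusted p 0.0589 to 0.135), without the filter on dim probes (0.0585), and with normexp (0.54) or the authors' values (0.47). After PH the values were 0.18, -0.04, -1.50 and -1.25 in MCD and -0.68, -3.40, -3.27 and -3.92 in C mice, with C replicate 1 again high. The difference was 2.17 (standard error 0.58, adjusted p = 0.0138), 2.88 without C replicate 1 (adjusted p = 0.000339), and not past the threshold without C replicate 2 or 4 or MCD replicate 1 or 2 (adjusted p 0.0518 to 0.0663) or with only these groups fitted (0.0888). It was 1.28 with normexp (adjusted p = 0.00328) and 1.43 with the authors' values (adjusted p = 0.00207). MCD mice after PH had the highest mean of all groups, -0.65, and the step of 0.94 to the next group, MCD mice before PH, was larger than the SD of both. Naip2 (r = 0.81), an inflammasome sensor, and Ccrl2 (r = 0.80), a chemokine-binding receptor, were most like Il1rn.

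Il1r1 was bright on all arrays and did not share this pattern. Before PH the difference of MCD from C mice was -0.31 (95% interval -1.13 to 0.51), while after PH MCD mice had 4.02, 3.76, 4.21 and 4.23, all above the C values of 3.00, 2.33, 1.99 and 2.44 (difference 1.62, standard error 0.40, adjusted p = 0.00755), and 17.2% of all tested genes did not overlap there. In MCD mice Il1r1 was higher after than before PH by 1.80 (standard error 0.40, adjusted p = 0.00441), with no overlap with the values of 2.67, 1.38, 1.79 and 3.20 before PH, where 19.2% of all tested genes did not overlap. This was past the threshold under all 16 alternatives, while the difference of MCD from C after PH was not with normexp (adjusted p = 0.059) and the authors' values (0.0516). M+Fc-GLP-1 mice had 3.77, 2.96, 3.86 and 3.52 before PH, higher than MCD mice by 1.27 (standard error 0.40, adjusted p = 0.0497). That call was lost without MCD replicate 1, 2 or 3 or M+Fc-GLP-1 replicate 1, 3 or 4 (adjusted p 0.0721 to 0.169), and with other centrings, the replicate block or only these groups fitted (0.0594 to 0.152). The named genes most like Il1r1 were Gja4 (r = 0.77), a gap junction protein of arterial endothelium, and Tctn1 (r = 0.74).

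The inflammasome adaptor and its protease were higher on the MCD diet than on chow before PH. Casp1 was at 0.32, -0.01, 0.66 and 0.87 in MCD and at -1.44, -0.57, -1.11 and -0.72 in C mice, a difference of 1.42 (standard error 0.35, adjusted p = 0.00385). Pycard was at 1.27, 0.80, 1.61 and 1.24 against 0.02, 0.40, 0.37 and 0.14, a difference of 1.00 (standard error 0.37, adjusted p = 0.0458). Neither gene's groups overlapped, as for 28.4% of all tested genes in this comparison. Casp1 passed in all 8 fits with 1 array left out, and Pycard did not without C replicate 1, 2, 3 or 4 or MCD replicate 1, 3 or 4 (adjusted p 0.0576 to 0.122). In all, 4 of 9 members were called in this comparison within a slide (Il1rn, Il1r2, Pycard and Casp1), all higher in MCD mice, where 26.5% of all tested genes were called and 10.9% were called higher. The median difference of the 9 members was 1.00, against -0.13 for all tested genes. With normexp and quantile normalization and with the authors' normalized values 0 of 9 members were called, Casp1 at 0.89 (adjusted p = 0.055) and 0.92 (adjusted p = 0.0535) being nearest, and the other 3 at 0.47 to 0.60.

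In M+Fc-GLP-1 mice Pycard was at 0.13, 0.59, 0.02 and 0.32 before PH, all below the MCD values, where 16.4% of all tested genes did not overlap. The difference of -0.97 did not pass the threshold (adjusted p = 0.106). After PH it was at 0.37, 0.55, 0.51 and 1.18, against 2.73, 2.23, 1.41 and 1.33 in MCD mice, again with no overlap, as for 14.3% of all tested genes (difference -1.27, standard error 0.37, adjusted p = 0.0371). That call was lost without MCD replicate 1 or 2 or M+Fc-GLP-1 replicate 1, 2 or 3 (adjusted p 0.0780 to 0.152), and with normexp, the authors' values, no filter or only these groups fitted (0.0684 to 0.116). In the same comparison 7 of 9 neutrophil markers were lower past the threshold, with a median difference of -2.90 and a summed level of 69.3 to 125 against 135 to 320, as were 2 of 7 Kupffer cell and 1 of 9 monocyte and macrophage markers. As mean log2 over the 9 neutrophil markers the groups overlapped, at -1.27 to 1.27 in M+Fc-GLP-1 and 1.05 to 3.09 in MCD mice. The part of these cells in the Pycard difference was not tested. Casp1 after PH was also lower in each M+Fc-GLP-1 mouse than in each MCD mouse, with a difference of -0.85 (adjusted p = 0.149). Of 9 members, 2 were called for MCD-fed mice with against without Fc-GLP-1 before PH (Il1b and Il1r1), where 7.22% of all tested genes were, and 1 after PH (Pycard), where 6.5% were. The median difference of the members was -0.97 before and -0.85 after PH, against 0.10 and 0.05 for all tested genes.

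The most alike genes were Ctss, Itgb2 and Ifi30 for Pycard (r = 0.94, 0.94 and 0.93) and Cd48, Cyria and Plac8 for Casp1 (r = 0.92, 0.90 and 0.90), and Ctss and Itgb2 encode a lysosomal protease and an integrin chain of leukocytes. Macrophage and neutrophil markers moved with the members in MCD mice before PH. Of 9 monocyte and macrophage markers 6 were higher and 1 lower than in C mice, with a summed level of 44.6 to 109 against 30.7 to 46.3, of 7 Kupffer cell markers 4 were higher and 1 lower, and of 9 tested neutrophil markers 3 were higher. Trem2 of lipid-associated macrophages was higher by 4.62 (adjusted p = 5.81e-05) and the neutrophil alarmin S100a8 by 3.06 (adjusted p = 0.00141). After PH the neutrophil markers stood apart in MCD mice, with a summed level of 135 to 320 against 96.5 to 114 in C mice and 5 of 9 markers higher. The part of these cells in the differences of the members was not tested.

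Nlrp3 encodes the sensor of the inflammasome that is best known for cleaving IL-1β. Its 2 probes were well above background on at most 3 of 4 arrays in any group, the first in C+Fc-GLP-1 and the second in C mice after PH, and lay between -6.63 and -2.20 on all arrays. Without the filter on dim probes, Nlrp3 was called in none of the 14 comparisons, with adjusted p from 0.168 upward.

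**Figure D3:**
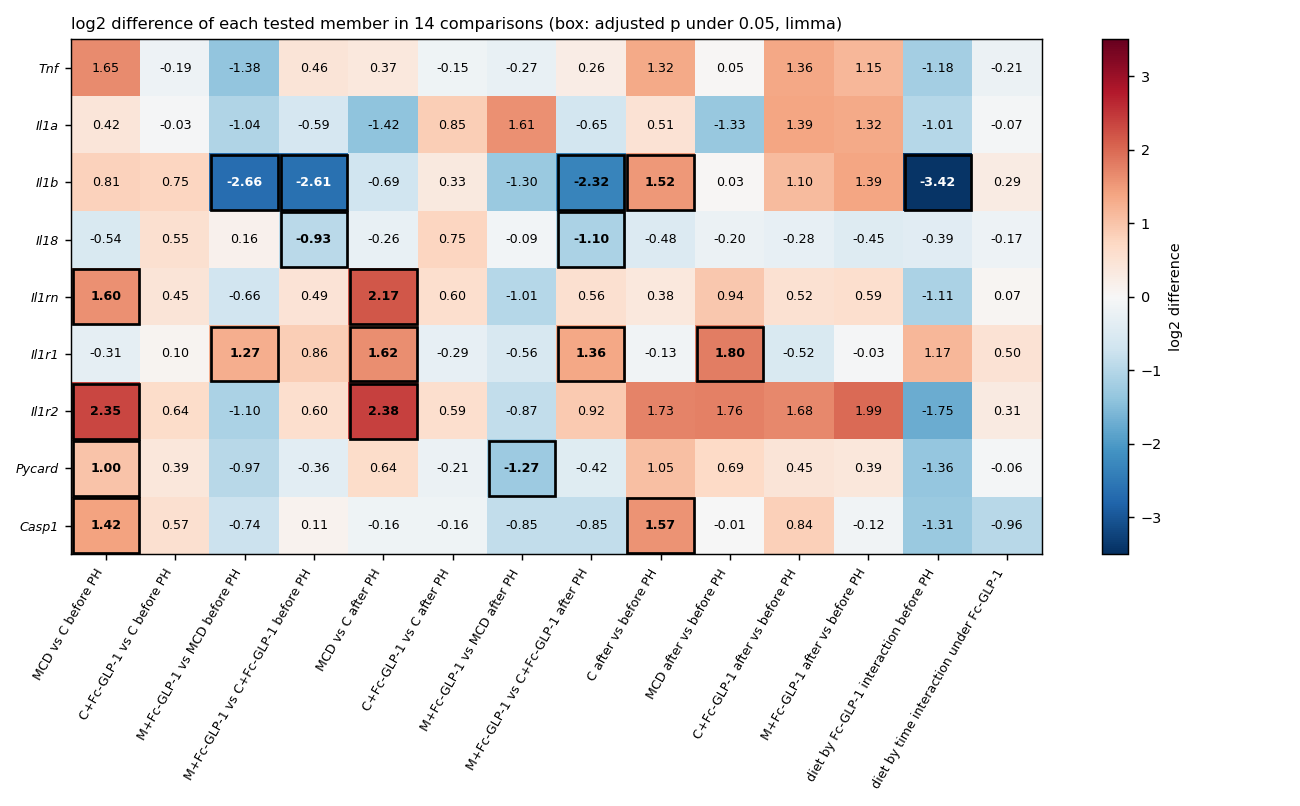
Log2 difference of each of 9 tested members (rows) in 12 comparisons between groups and 2 interactions (columns), on a colour scale from blue (lower in the first-named group) to red (higher); boxes mark an adjusted p under 0.05 from limma, and values against a group with no array well above background are fitted differences, not bounds. Il1b has the largest differences, -2.66 and -2.61 between groups and -3.42 for the interaction. Il1r2 at 2.38 and 2.35 (MCD against C after and before PH) comes next, ahead of the Il1b difference of -2.32.

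Across PH, 2 of 9 members were called in C mice, where 14% of all tested genes were called, 1 of 9 in MCD mice, where 9.43% were, and 0 of 9 in either treated group, chow or MCD, where 0.835% and 1.71% were. In these last comparisons limma gave 5 and 3 members an unadjusted p under 0.05. Casp1 rose in C mice from the values above to 2.07, 0.41, -0.07 and 0.03, by 1.57 (standard error 0.35, adjusted p = 0.00389) and by 1.08 without C replicate 1 after PH (adjusted p = 0.0265). Il1b rose to 1.46, 0.18, -0.84 and -0.31, by 1.52 (standard error 0.47, adjusted p = 0.0309), and neither gene overlapped with its values before PH, as for 17.9% of all tested genes. The latter call was lost without C replicate 1 or 2 after PH or C replicate 1, 2 or 4 before PH (adjusted p 0.0534 to 0.158), and with normexp (0.0587), and the difference was 1.08 without C replicate 1 after PH. In the same comparison 6 of 7 Kupffer cell, 6 of 9 monocyte and macrophage and 4 of 9 neutrophil markers rose past the threshold and 0 fell, and their part in these rises was not tested. With only the C arrays fitted neither rise passed (adjusted p = 0.0744 and 0.0691). Il1r2 was not called in any group. Its differences of after from before PH were 1.73 in C, 1.76 in MCD and 1.99 in M+Fc-GLP-1 mice. In C+Fc-GLP-1 mice, with no array well above background before PH, the observed mean was at least 2.25-fold higher after PH (limma adjusted p = 0.227). Only 2 of 4 of these arrays after PH were well above background, with Il1r2 at -1.60, -3.46, -4.38 and -4.10 on replicates 1 to 4. In C mice its difference of 1.73 was 0.84 without C replicate 1 after PH and 2.37 (adjusted p = 0.0176) without C replicate 3 after PH, and that of Pycard, 1.05, was 0.56 and 1.37 (adjusted p = 0.0154). The interaction of diet and time under Fc-GLP-1 called 0 of 9 members, none with an unadjusted p under 0.05 in limma, where 0.0949% of all tested genes were called.

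C replicate 1 after PH stood apart within its group. It was the highest of 4 for 8 of the 9 tested members and the lowest for Il18, with a mean deviation of 1.39 from the group means. The summed level of monocyte and macrophage markers was 270 on this array and 54.4 to 112 on the other 3, and that of Kupffer cell markers 420 against 136 to 249. C+Fc-GLP-1 replicate 1 after PH was the highest of 4 for 6 of 9 members, with a monocyte and macrophage sum of 204 against 73.2 to 88.5. Within groups Pycard went with Tnf (r = 0.85), Casp1 (r = 0.81) and Il1r2 (r = 0.74) over the 32 arrays, while Il18 and Il1r1 went with no other member beyond an r of 0.28. The arrays share slides, and these correlations rest partly on the arrays just named.

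After PH, 3 of 9 members were called between MCD and C mice, all higher on the MCD diet (Il1rn, Il1r1 and Il1r2), where 12.1% of all tested genes were called and 6.05% were called higher. Between C+Fc-GLP-1 and C mice 0 of 9 members were called both before PH, where 2.11% of all tested genes were called, and after PH, where 2.06% were. In each of these limma gave 1 member an unadjusted p under 0.05, Il18 both times, with differences of 0.55 and 0.75. Its groups did not overlap, as for 9.96% of all tested genes before and 10.5% after PH.

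**Figure D4:**
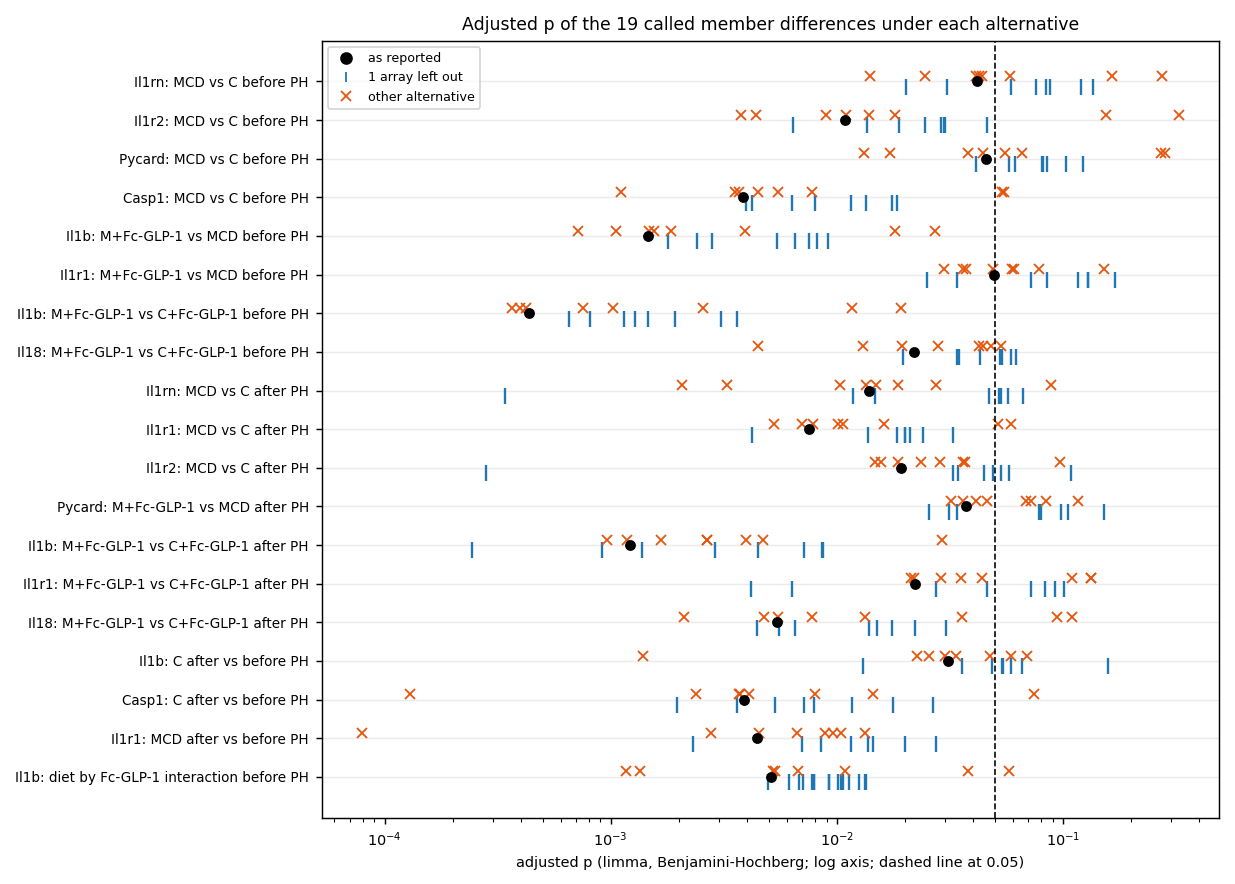
Adjusted p from limma (horizontal log axis, dashed line at 0.05) for each of the 19 called differences of members (rows), as reported (black points), with 1 array left out (blue ticks) and under the other alternatives (orange crosses). Il1b in M+Fc-GLP-1 against MCD and C+Fc-GLP-1 mice, and Il1r1 in MCD mice after against before PH, stay left of the line throughout.

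Of 61 other genes of the IL-1 and TNF pathways, all on the array, 47 were tested. In MCD against C mice before PH 12 of 47 were higher and 7 lower past the threshold, with a median of 0.30, where 26.5% of all tested genes were called. The targets Lcn2, an iron-sequestering acute phase protein, Vcam1, an adhesion molecule, and Ccl2, a monocyte chemokine, rose by 5.08, 2.54 and 2.50 (adjusted p = 9.29e-05, 0.00112 and 0.0294). Tnfaip3, a brake on NF-κB signalling, rose by 2.38, the IL-18 binding protein Il18bp by 2.18, the alarmin Il33 by 2.03 and the TNF receptors Tnfrsf1a and Tnfrsf1b by 1.25 and 1.60. Il1rap, the accessory chain that the type 1 receptor needs to signal, fell by 1.77 (adjusted p = 0.00147), and the pore-forming protein gene Gsdmd, which the inflammasome activates, fell by 1.00 (adjusted p = 0.000161).

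In M+Fc-GLP-1 against MCD mice before PH 2 of 47 were higher and 6 lower, with a median of -0.34, where 7.22% of all tested genes were called. Lcn2 was lower by -4.16 (adjusted p = 0.00522), Mefv, which encodes the sensor pyrin, by -2.24 (adjusted p = 0.00824), Saa1 and Saa2, acute phase genes induced by IL-1, by -2.15 and -2.30, Naip2 by -1.09 and Tnfrsf1a by -0.87. Nlrp12, an NLR family member, was higher by 2.34 (adjusted p = 0.000471) and Il1rap by 1.39 (adjusted p = 0.0297). In M+Fc-GLP-1 against C+Fc-GLP-1 mice 1 was higher and 4 lower of 47 before PH, and 1 higher and 5 lower after PH. These counts are near the shares of all tested genes that were called, 10.4% before and 12.8% after PH. Saa1 was lower there by -3.49 (adjusted p = 0.000405) before and -3.07 (adjusted p = 0.00127) after PH, Saa2 by -3.39 and -3.50, and Gsdmd by -1.24 and -0.83. Saa1 and Saa2 are close copies, and whether their probes tell them apart was not tested.

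After PH 5 of 47 were higher and 5 lower in MCD than in C mice, where 12.1% of all tested genes were called. They were led by Lcn2 at 3.21 (adjusted p = 0.0136), Il1rap at -1.62 (adjusted p = 0.00618) and Nlrp6 at -1.40. With against without Fc-GLP-1 on the MCD diet 1 was higher and 4 lower, among them Saa2 at -3.43 and Mefv at -2.33, where 6.5% of all tested genes were called. Between C+Fc-GLP-1 and C mice 0 of 47 were called before PH and 2 after PH, Nlrp1b (2.71) and Lta (1.65), where 2.11% and 2.06% of all tested genes were. From before to after PH 10 rose and 4 fell in C mice, with Lcn2 at 4.36, Saa2 at 3.59 and Saa1 at 3.02, where 14% of all tested genes were called. In MCD mice 2 rose and 2 fell, where 9.43% of all tested genes were called. In M+Fc-GLP-1 mice 1 rose, Lcn2 by 5.33 (adjusted p = 0.000738), and 0 changed in C+Fc-GLP-1 mice, where 1.71% and 0.835% of all tested genes were called. In the diet by treatment interaction before PH, 1 was higher and 7 lower, with Lcn2 at -5.65 (adjusted p = 0.00944), Ccl2 at -4.40 (adjusted p = 0.0298) and Saa2 at -3.70, where 6.15% of all tested genes were called. In the interaction of diet and time 0 of 47 were called, where 0.0949% of all tested genes were.

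**Figure D5:**
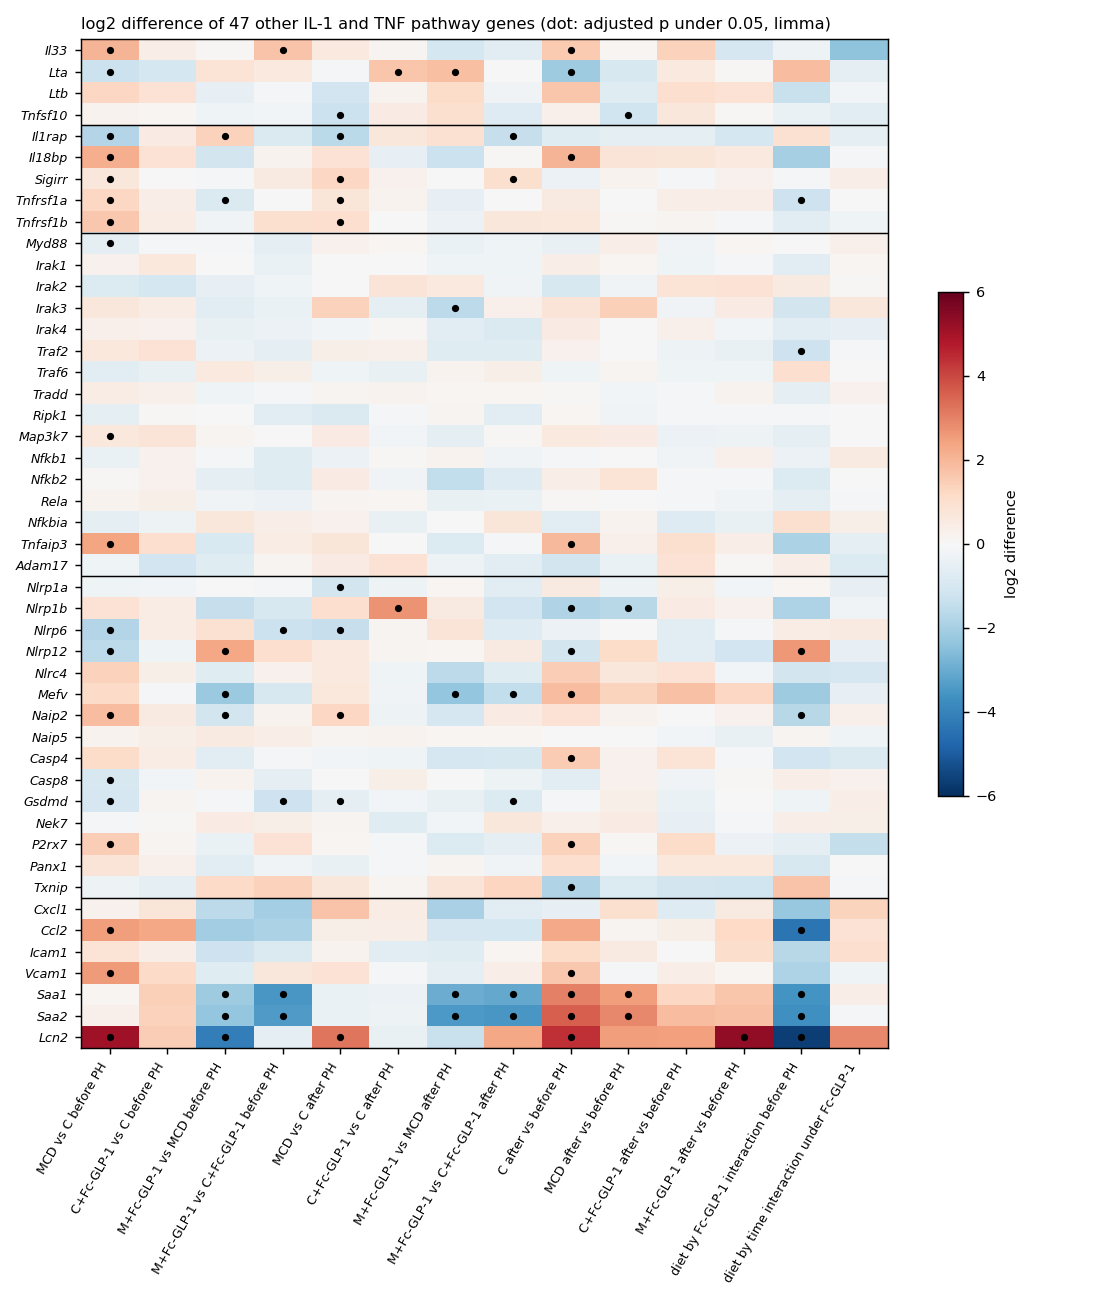
Log2 difference of 47 other IL-1 and TNF pathway genes (rows: ligands, receptors, signalling, inflammasome and target genes, separated by lines) in 14 comparisons (columns), from blue (lower in the first-named group) to red (higher); dots mark an adjusted p under 0.05 from limma. Lcn2, Ccl2, Saa1 and Saa2 are among those with the strongest colours, and most signalling genes stay pale.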

How the data were processed

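The authors deposited, per the file headers, the intensity values of Agilent Feature Extraction 10.7.3.1, background corrected and detrended within each array, and a table of normalized log2 values that the authors made with limma (version not given in the sources used here). The deposited log2 values were normalized separately before PH (median 75th percentile 8.38) and after PH (9.01), and served as an alternative. Here log2 intensity was centred on each array's 75th percentile over 59305 non-control spots. Spots flagged as outliers were left out, which dropped 426 of 55681 probes. A probe counted as well above background when over 50% of its spots were, and was kept when this held on all 4 arrays of a group. The brightest kept probe stood for a gene. Probes were named by RefSeq accession where the table held it (27656 probes) and otherwise as in the files. The model was fitted with limma 3.58.1 under R 4.3.3, with 8 group means and Benjamini-Hochberg adjustment. The labels call the 4 arrays of a group biological replicates. Where a group had no array well above background, a fold is a bound, the mean of the bright group against the lowest signals well above background on the dim arrays. Such a bound holds for the observed means and does not allow for sampling error. The test was tried on simulated data for MCD against C before PH: of 21071 genes 200 were changed, and 31% of changes of 1 and 86% of changes of 2 (log2) were recovered, with 6 calls among unchanged genes. The members, gene lists, naming rule (all members, any called pathway gene with the 3 largest differences first, and the 3 genes most correlated with each member) and tests were chosen with earlier results of these data known. Alternatives were normexp (offset 50) with quantile normalization, 2 other centrings, the authors' values, no filter, the mean over a gene's probes, only the groups compared, a replicate block and each array left out. Upstream sequences are RefSeq's on GRCm38.p6. Array number, not read depth, limits the precision.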

Additional observations from a re-analysis of the deposited data

Results flagged for a closer look

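Of 88 sets of 4 arrays, 1 for each member probe and group, 3 had an array far from the other 3, where chance gives about 1 in 20. Tnf on C replicate 1 after PH was at -0.52, against -4.05 for the nearest array, and the markers of macrophages given in the report were high on the same array. Il1a on MCD replicate 1 before PH was at -3.11, against -4.02 for the nearest. Il1rn on C+Fc-GLP-1 replicate 1 before PH was at -2.01, against -2.97 for the nearest. The difference that went with Fc-GLP-1 before PH was not the same on the 2 diets for Il1b, with an interaction of -3.42 on the log2 scale, which was tested with limma.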

How the results depend on the processing

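Directions held for all 25 member differences examined under every alternative, while many calls did not. The number of members called moved by over 1.5 times as follows. With normexp and quantile normalization it was 0 for MCD against C before PH, 0 for M+Fc-GLP-1 against MCD after PH, 1 for M+Fc-GLP-1 against C+Fc-GLP-1 after PH and 1 for C after against before PH. With median centring it was 1 for M+Fc-GLP-1 against MCD before PH and 3 for the diet by treatment interaction, and with the percentile over probes detected on all arrays 1 for M+Fc-GLP-1 against MCD before PH. With the authors' values it was 0 for MCD against C before PH, 0 for M+Fc-GLP-1 against MCD after PH, 1 for M+Fc-GLP-1 against C+Fc-GLP-1 at both times, 0 for the interaction, and for after against before PH 6 in C, 4 in MCD, 3 in treated chow and 4 in treated MCD mice, across separate normalizations. Without the filter on dim probes it was 2 for MCD against C before PH and 0 for M+Fc-GLP-1 against MCD after PH. For MCD against C before PH it was 4 as reported, 5 with median centring (Tnf added), 3 with the percentile over detected probes (Pycard lost) and 6 with only the groups compared (Tnf and Il1b added). With the percentile over detected probes Pycard also passed in C after against before PH, which made 3. With only the groups compared it was 1 for MCD against C after PH, 0 for M+Fc-GLP-1 against MCD after PH, 0 and 2 for after against before PH in C and MCD mice, and 3 for the interaction. The mean over a gene's probes changed no call, and the cause of the other changes was not tested. Leaving out 1 array gave 2 to 4 for MCD against C before PH, 1 to 4 after PH, 1 to 2 for M+Fc-GLP-1 against MCD before PH, 0 to 1 after PH, 1 to 2 for M+Fc-GLP-1 against C+Fc-GLP-1 before PH, 2 to 3 after PH, 1 to 4 for C after against before PH, 1 for MCD after against before PH and for the diet by treatment interaction, and 0 elsewhere.

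Replicate numbers did not show a pairing of the samples. The labels do not say whether arrays before and after PH come from the same mice, and a low correlation cannot settle it. Deviations of same-numbered arrays, paired over PH within a group, had a mean correlation of 0.0126 (16 pairs, highest 0.0876). With the replicate block 1 member was called for M+Fc-GLP-1 against MCD before PH, Il1r1 being lost (adjusted p = 0.0594), and Tnf in MCD against C before PH (0.0434) and Pycard in C after against before PH (0.0456) passed. Slide as a random block was not run, since slides hold whole groups.

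The group with the highest mean was the same for 7 to 9 of 9 members under 6 alternatives. Median centring moved the median of all genes by up to 0.37 between groups and by -0.62 in the diet by treatment interaction. It turned the called genes of MCD against C before PH from 2306 higher of 5574 to 4206 higher and 1266 lower. Signal over background limits what can be said of Tnf, Il1a, Il1r2 and Nlrp3.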
